A study of Mus musculus with 23 samples.

Results

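The Notch genes described here are the receptors Notch1, Notch2 and Notch3, the ligands Jag1, Jag2 and Dll1, the DNA-binding partner Rbpj, the target gene Hes1 and its relative Hes6. They were taken by gene name from a table of 54354 mouse genes, and all 9 were found once each. RNA was sequenced from 11 libraries of sorted GFP-positive cells and 12 libraries of sorted GFP-negative cells. Both populations came from the same kind of tumour, grown in mouse colon from injected AKP-tdT organoids that carried the reporter Basp1-eGFP-DTR, and every library has the genotype Basp1-GFP. In that reporter Basp1 drives a fused eGFP and DTR (the receptor for diphtheria toxin). Both populations were sorted from such tumours, and the labels do not say which cells besides those of the organoids were in either gate. The RNA protocol names organoids as its source while the design names digested primary tumours, and no sample label gives an age, diet or animal. The series title ends in the tag HFD, which the sample labels do not explain.

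Notch receptors are held on one cell and their ligands on the neighbouring cell. Contact lets proteases release the intracellular part of the receptor, which moves to the nucleus, joins Rbpj on DNA and switches on Hes1 and related repressors. In the intestine Hes1 is known for holding back Atoh1 and with it the goblet, Paneth and enteroendocrine fates, and Notch activity is known to maintain crypt progenitors.

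Promoter sequence (RefSeq, build GRCm38.p6, from 250 bases before to 50 bases after the start site) was at hand for 8 of the 9 genes in 11 windows, with no entry for Hes1. The 6-letter core that Rbpj recognises, TGGGAA, was searched on both strands. It stood in both windows of Rbpj itself and in no window of the other 7 genes, and 25.6% of all 32851 promoter windows hold it. The windows of Rbpj overlap, and the only core in the later one is also in the earlier one. The N-box CACNAG, a motif bound by Hes repressors, stood in 5 of the 11 windows, against 42.5% of all 32851 windows. These 5 windows belong to 5 of the 8 genes (Notch1, Notch2, Notch3, Dll1 and Hes6). One Rbpj window and one Hes6 window are shown because they hold these motifs next to genes whose RNA had counts in most libraries. Rbpj had counts in 22 and Hes6 in 20 of 23 libraries, each with a median of only 7 counts in GFP-negative libraries. Capitals mark the core in Rbpj, at -149 and -65 from the start site, and the N-box in Hes6, at -237 and 16. A match of letters is a description and no evidence of binding, which was not measured here.
Rbpj, chr5:53590096-53590395, plus strand: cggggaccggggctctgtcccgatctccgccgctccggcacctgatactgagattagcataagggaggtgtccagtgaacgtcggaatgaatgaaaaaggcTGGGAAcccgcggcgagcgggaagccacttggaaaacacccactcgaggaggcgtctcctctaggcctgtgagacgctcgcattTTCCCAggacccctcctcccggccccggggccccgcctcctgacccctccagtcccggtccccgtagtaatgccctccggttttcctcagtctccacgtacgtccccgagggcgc
Hes6, chr1:91413173-91413472, minus strand: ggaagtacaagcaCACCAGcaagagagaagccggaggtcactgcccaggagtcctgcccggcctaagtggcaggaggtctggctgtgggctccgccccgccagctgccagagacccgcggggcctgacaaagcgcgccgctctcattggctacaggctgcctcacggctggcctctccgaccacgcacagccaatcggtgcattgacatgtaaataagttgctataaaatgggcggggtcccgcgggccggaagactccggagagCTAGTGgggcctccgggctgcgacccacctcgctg

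Depth set what could be seen of each gene. Total counts ran from 37125 to 4238877 in GFP-positive libraries (median 1418140, n = 11) and from 25458 to 2304316 in GFP-negative libraries (median 144334.5, n = 12). GFP-positive 4 and GFP-negative 4, 5 and 12 held under 100000 counts. Levels are given as CPM, the count relative to the total of its library. The 10 epithelial markers checked (Epcam, Cdh1, keratins and others) summed to 2358 to 6144 CPM in GFP-positive and 2375 to 6722 CPM in GFP-negative libraries, so both populations carried epithelial RNA. Markers of other cells were present too. The 10 macrophage markers had a median sum of 350 CPM in GFP-positive (123 to 30394) and 2469 CPM in GFP-negative libraries (384 to 6525). The highest value was that of GFP-positive 3, which stands apart, since the next GFP-positive library had 1051 CPM. The 10 fibroblast markers had 225 CPM (0 to 2132) and 1778 CPM (150 to 8850), and the 10 mural markers, of smooth muscle and pericytes, 42.0 CPM (0 to 315) and 259 CPM (0 to 818), GFP-positive first. All marker medians here pool libraries of 2 runs of library numbers, and fibroblast and macrophage markers are given by run below. The 10 endothelial markers had 81.7 CPM in GFP-positive (26.9 to 268) and 128 CPM in GFP-negative libraries (14.4 to 602). In each of these 4 lists all 10 markers had counts. Of 10 lymphocyte markers only the same 2 had counts in each population, with median sums of 1.60 CPM in GFP-positive and 0 CPM in GFP-negative libraries. In such bulk samples fewer cells of a type and less RNA per cell cannot be told apart.

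Relative to transcript length, Hes1 stood far above the other Notch genes in every library. Dividing CPM by the length of the principal transcript gave 239 ± 110 CPM per kilobase for Hes1 and 22.0 ± 24.2 for Hes6 (SD, n = 23 for both). Rbpj followed with 9.0 ± 6.60 CPM per kilobase and Jag1 with 5.33 ± 4.0 (SD, n = 23 for both). The receptors were far lower, with 1.74 ± 2.03 CPM per kilobase for Notch1, 0.988 ± 1.04 for Notch2 and 0.257 ± 0.465 for Notch3 (SD, n = 23 each). Jag2 had 0.757 ± 0.964 and Dll1 0.610 ± 1.80 CPM per kilobase (SD, n = 23 for both). Hes1 was above Hes6 in 23 of 23 libraries, Hes6 above Rbpj in 16, Rbpj above Jag1 in 18 and Jag1 above Notch1 in 18. Notch1 was above Notch2 in 13 libraries and below it in 8, and Notch2 was above Jag2 in 9 and below it in 11, so the order below Jag1 and Notch1 did not separate beyond the spread. Rbpj and Jag1 changed places when the length of all exons together was used.

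**Figure D1:**
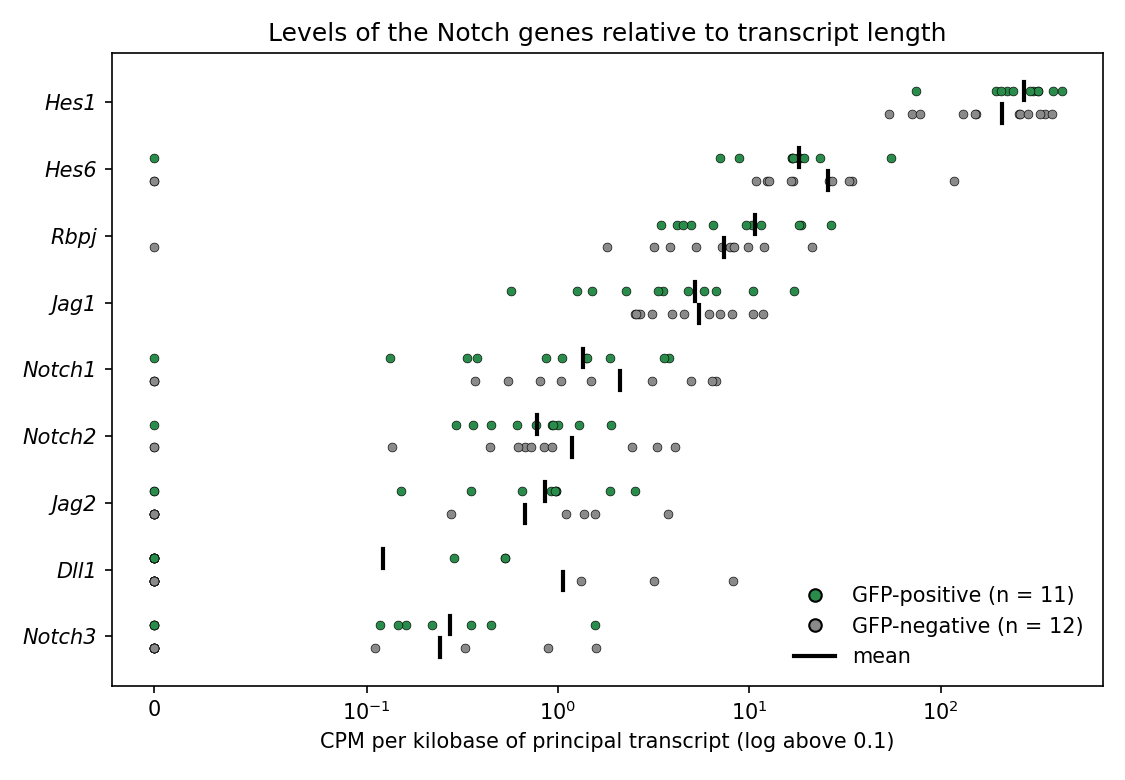
Levels of the 9 Notch genes in every library, in CPM per kilobase of the principal transcript (horizontal, logarithmic above 0.1), with GFP-positive libraries (n = 11, green) above GFP-negative libraries (n = 12, grey) and bars at the means. Hes1 lies above every other gene in all 23 libraries, and Dll1 and Notch3 are at 0 in most.

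Among the ligands, Jag1 was detected in every library, on only 1 count in GFP-positive 4 and in GFP-negative 4, 5 and 12. Jagged1, its product, is a membrane ligand of the Notch receptors. Jag1 (ENSMUSG00000027276, chromosome 2, 137081456 to 137116644, mm10, minus strand) ran from 3.19 to 95.5 CPM with a median of 19.8 in GFP-positive libraries, and from 14.2 to 65.9 CPM with a median of 23.7 in GFP-negative libraries. The populations overlapped in part, with 4 GFP-positive libraries below every GFP-negative library and 1 above them all. The lower part of this ordering is fragile, since GFP-negative 4, 5 and 12 rested on 1 Jag1 count each. Losing that count in any of them would put that library below all 4. The highest library of each population carried the same identifier in its library name, 3034. Jag1 had 405 counts (95.5 CPM) in GFP-positive 1 and 28 counts (65.9 CPM) in GFP-negative 1. In GFP-positive 1 the summed fibroblast, mural and endothelial markers were also the highest of the 11 GFP-positive libraries, at 2132, 315 and 268 CPM, and their part in the Jag1 level was not tested.

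Jag2 and Dll1 were sparse. Jag2, another Jagged ligand, gave 72 counts over 9 of 11 GFP-positive libraries and 32 counts over 5 of 12 GFP-negative libraries, with medians of 4.71 and 0 CPM. Its highest level was 12.8 CPM among GFP-positive and 19.1 CPM among GFP-negative libraries, the second from 3 counts. Dll1, the Delta ligand associated with secretory precursors in the intestine, gave 16 counts over 3 GFP-positive libraries (8, 4 and 4) and 13 counts over 3 GFP-negative libraries (2, 8 and 3). The other 17 libraries had 0 Dll1 counts, where 3 counts would stand for 1.07 CPM in the deepest and 118 CPM in the shallowest of them. Absence could therefore not be told from low depth.

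The receptors were detected at low levels in both populations. Notch1 (ENSMUSG00000026923, chromosome 2, 26457903 to 26516663, minus strand) ran from 0 to 35.9 CPM with a median of 9.91 in GFP-positive libraries, and from 0 to 63.5 CPM with a median of 8.71 in GFP-negative libraries. Its total was 250 counts over GFP-positive and 97 over GFP-negative libraries. The highest GFP-positive value, from 76 counts, was that of GFP-positive 3, the library with 30394 CPM of macrophage markers, and the part of those cells was not tested. The next was 33.8 CPM in GFP-positive 6. Notch2, a receptor shared by many cell types, ran from 0 to 19.8 CPM with a median of 8.02 in GFP-positive libraries, and from 0 to 43.1 CPM with a median of 7.34 in GFP-negative libraries. That GFP-negative maximum rests on 3 counts in GFP-negative 12. The medians of Notch1 and Notch2 thus lay close together in the populations, and for each gene 3 GFP-negative libraries stood above every GFP-positive library. For Notch2 these rested on 4, 2 and 3 counts (GFP-negative 3, 4 and 12). For Notch1 they rested on 20, 10 and 7 counts (GFP-negative 1, 3 and 10).

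Notch3, a receptor best known from vascular smooth muscle and pericytes, was the scarcest receptor. It gave 78 counts over 7 GFP-positive libraries and 12 counts over 4 GFP-negative libraries, with medians of 1.17 and 0 CPM. Of the 78 GFP-positive counts, 53 came from GFP-positive 1 (12.5 CPM), which also had the highest summed mural markers of its population. The GFP-negative maximum, 12.7 CPM in GFP-negative 3, came from 2 counts, and the mural markers summed to 19.1 CPM there. The share of mural RNA in the Notch3 level was not tested.

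**Figure D2:**
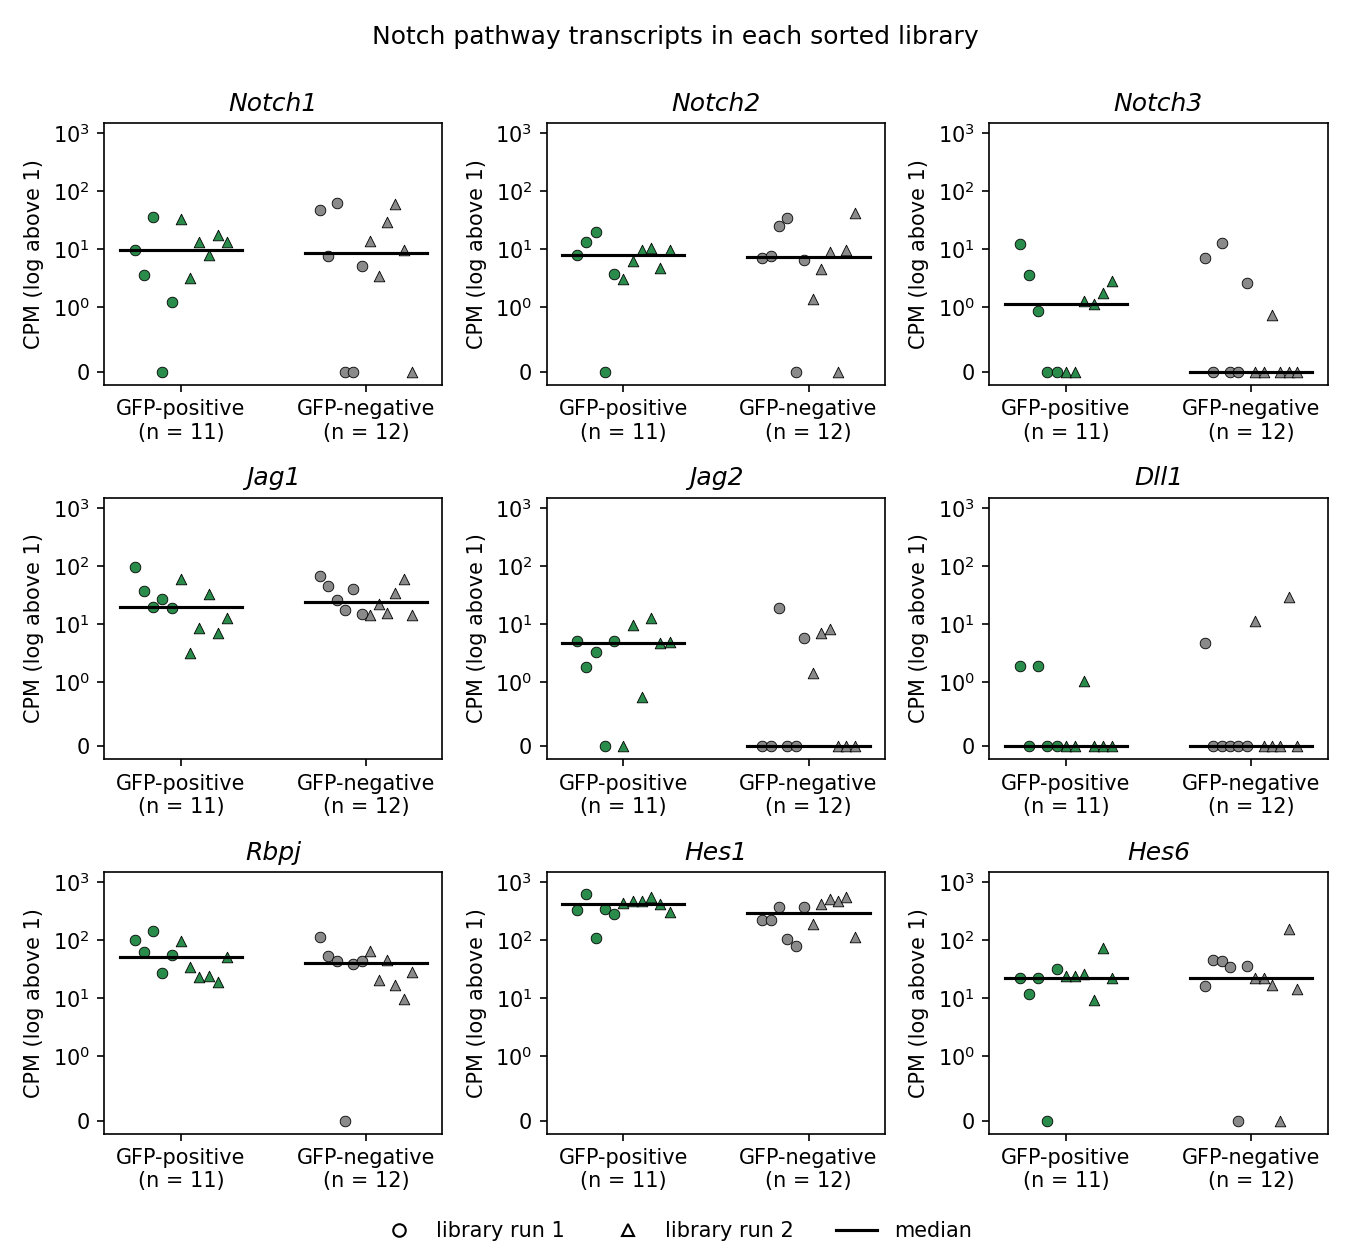
CPM of each Notch gene in every library (vertical, logarithmic above 1), GFP-positive (n = 11) left and GFP-negative (n = 12) right, with circles for library run 1, triangles for library run 2 and bars at the medians. Values of the populations overlap for all 9 genes.

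Rbpj, the nuclear protein through which all Notch receptors act, was found in 22 of 23 libraries. Rbpj (ENSMUSG00000039191, chromosome 5, 53466152 to 53657362, plus strand) ran from 18.8 to 145 CPM with a median of 52.2 in GFP-positive libraries, and from 0 to 115 CPM with a median of 41.1 in GFP-negative libraries. The highest value in each population was that of GFP-positive 3, with 306 counts, and of GFP-negative 1, with 49 counts. In GFP-positive 3 the macrophage markers were at their maximum.

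Hes1, the repressor that Notch switches on directly, was the best measured of the Notch genes. Hes1 (ENSMUSG00000022528, chromosome 16, 30064384 to 30067796, plus strand) gave 7577 counts over GFP-positive and 2263 over GFP-negative libraries, and its median share of the counts of the 9 genes in a library was 77.0% in GFP-positive and 60.5% in GFP-negative libraries. Over pooled counts the shares were 71.6% in GFP-positive and 74.2% in GFP-negative libraries. Its level ran from 109 to 635 CPM with a median of 428 in GFP-positive libraries, and from 78.6 to 559 CPM with a median of 299 in GFP-negative libraries. The lowest GFP-positive value was again that of GFP-positive 3. The other GFP-positive libraries lay between 287 and 635 CPM. Of the 12 GFP-negative libraries 6 lay below 287 CPM, 3 of them with under 100000 counts, but that cut leaves out GFP-positive 3. With GFP-positive 3 kept, 2 GFP-negative libraries lay below every GFP-positive library. These were GFP-negative 4 and 5, at 104 and 78.6 CPM on only 6 and 2 Hes1 counts. At the other end 2 GFP-positive libraries lay above every GFP-negative library.

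Hes6, a relative of Hes1 that was reported in mouse cells to oppose Hes1, had similar medians in both populations. Hes6 (ENSMUSG00000067071, chromosome 1, 91411483 to 91414038, minus strand) ran from 0 to 73.0 CPM with a median of 22.6 in GFP-positive libraries, and from 0 to 157 CPM with a median of 22.3 in GFP-negative libraries. Both maxima came from libraries with the identifier 7914, with 124 counts in GFP-positive 10 and 16 counts in GFP-negative 11.

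None of the Notch genes tested differed between GFP-positive and GFP-negative cells beyond the spread between libraries. The test needs about 14.2 CPM in at least 11 libraries, and 4 of the 9 genes passed that filter: Jag1, Rbpj, Hes1 and Hes6. Of these 4, 0 were called by edgeR's quasi-likelihood test with Benjamini-Hochberg adjustment at 0.05 (background 0.0151% of 6621 tested genes), and 0 had an unadjusted p under 0.05 (background 4.95%). The single gene called was Fbln1, an extracellular matrix gene (log2 fold change -3.17, SE 0.54, edgeR adjusted p = 0.0119). DESeq2 called 0 of the 7 Notch genes to which it gave an adjusted p (all but Notch3 and Dll1), against 0.494% of 11346 genes, and 0 of the 9 had an unadjusted p under 0.05 by it (background 4.07% of 23846). Basp1, which checks the sort, averaged 57.8 ± 32.9 CPM in GFP-positive (SD, n = 11) and 33.4 ± 27.0 CPM in GFP-negative libraries (n = 12, SD), a log2 fold change of 0.63 that did not pass (edgeR adjusted p = 0.997).

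Hes1 averaged 399 ± 145 CPM in GFP-positive libraries (n = 11, SD) and 305 ± 170 CPM in GFP-negative libraries (SD, n = 12). Its log2 fold change was 0.35 (SE 0.27, 95% interval -0.20 to 0.91, edgeR adjusted p = 0.997). Rbpj averaged 58.5 ± 40.5 CPM and 40.2 ± 30.3 CPM in the same order (n = 11 and 12, SD), with a log2 fold change of 0.46 (SE 0.37, interval -0.30 to 1.22, edgeR adjusted p = 0.997). In this fit over all libraries the Hes1 interval excludes a doubling or a halving, and that of Rbpj excludes a halving but not a doubling. The Hes1 upper limit lies close to a doubling, so its exclusion is narrow and holds for this fit only. Over 32 alternative fits Hes1 ran from 0.17 to 0.50, with 0.48 (SE 0.26) where no filter beyond 1 count was used. In library run 1 alone the Hes1 interval was -0.35 to 1.20 and includes a doubling. That of library run 2, -0.32 to 0.84, does not. Without GFP-positive 3 the Rbpj value was 0.17 and that of Hes1 0.45 (edgeR adjusted p = 0.980 and 0.786).

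Jag1 averaged 29.2 ± 27.2 CPM in GFP-positive and 30.6 ± 18.2 CPM in GFP-negative libraries (n = 11 and 12, SD), a log2 fold change of 0.01 (SE 0.43, interval -0.85 to 0.87, edgeR adjusted p = 0.999). The value was -0.43 without GFP-positive 1, the Jag1-high library (edgeR adjusted p = 0.997), and 0.27 without GFP-negative 1. Hes6 averaged 24.2 ± 18.5 CPM in GFP-positive and 34.2 ± 41.5 CPM in GFP-negative libraries (n = 11 and 12, SD), a log2 fold change of -0.27 (SE 0.43, interval -1.13 to 0.59, edgeR adjusted p = 0.997). It was 0.13 without GFP-negative 11 and -0.62 without GFP-positive 10, the libraries of identifier 7914. A direction for Jag1 or Hes6 thus depended on single libraries.

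The 5 genes below the filter had values in a fit with no filter beyond 1 count, over 23846 genes. Their log2 fold changes were -0.48 for Notch1 (SE 0.52), 0.01 for Notch2 (SE 0.45), 0.34 for Notch3 (SE 0.83) and 0.13 for Jag2 (SE 0.70). Dll1 had -2.25 (SE 0.97, unadjusted p = 0.0235, edgeR adjusted p = 0.320) on 29 counts in all, in a fit where 11.1% of the genes had an unadjusted p under 0.05. DESeq2 gave Dll1 a log2 fold change of -2.70 with an unadjusted p of 0.0951.

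The library numbers in the labels fall into 2 runs, and the sort was compared within each. Run 1 held 5 GFP-positive and 6 GFP-negative libraries, and run 2 held 6 of each. In run 1, 0 of 4 tested Notch genes and 0% of 5256 genes were called by edgeR. At an unadjusted p under 0.05 these were 0 Notch genes and 284 genes (5.4%), and DESeq2 called 9 genes (0.111%), none a Notch gene. In run 2, 0 of 5 tested Notch genes were called against 1.28% of 6952 genes, 89 in all, of which 86 were lower in GFP-positive cells. At an unadjusted p under 0.05 edgeR had 0 of the 5 against 6.88% of all genes. DESeq2 called none of the Notch genes there against 2.38% of 11924 and gave 1 of the 9, Dll1, an unadjusted p under 0.05 (p = 0.0384, DESeq2 adjusted p = 0.439), where 6.07% of 20782 genes had one.

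Hes1 averaged 341 ± 189 CPM in GFP-positive and 230 ± 129 CPM in GFP-negative libraries of run 1 (SD, n = 5 and 6), and 448 ± 84.9 and 380 ± 183 CPM in run 2 (SD, n = 6 and 6). Its log2 fold change was 0.43 in run 1 and 0.26 in run 2 (SE 0.37 and 0.28). Rbpj had 0.63 and 0.19 (SE 0.48 and 0.50), Jag1 0.24 and -0.34 (SE 0.54 and 0.64) and Hes6 -0.63 and -0.06 (SE 0.49 and 0.65), run 1 before run 2. In run 1 Rbpj had 1.18 without GFP-negative 1 and 0.22 without GFP-positive 3, and in run 2 Hes6 had 0.83 without GFP-negative 11 (edgeR adjusted p = 0.567, 0.959 and 0.869). Notch1, tested in run 2 alone, had -0.39 (SE 0.65, edgeR adjusted p = 0.943), and 0.06 without GFP-negative 10. The difference between runs was tested as an interaction, and 0 of 4 Notch genes and 0% of 6621 genes were called (edgeR, 0 Notch genes and 424 genes, or 6.4%, at an unadjusted p under 0.05). By DESeq2 that interaction called 5 genes (0.0863%), none of the Notch genes among them.

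**Figure D3:**
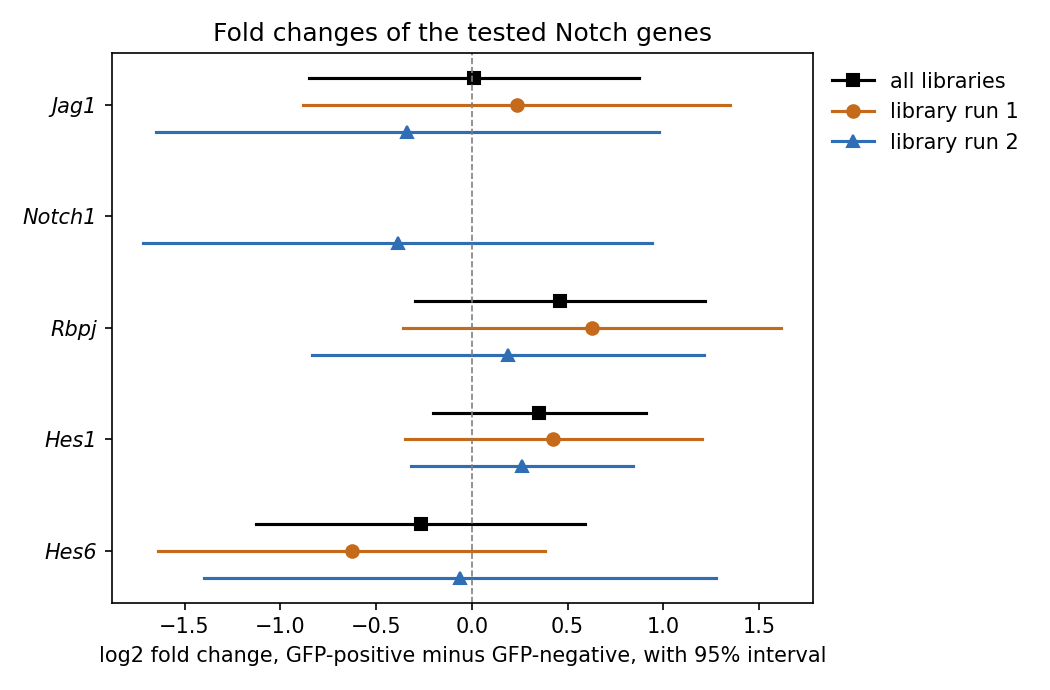
Log2 fold changes of the tested Notch genes, GFP-positive minus GFP-negative (horizontal), with 95% intervals from the edgeR standard error, for all libraries, library run 1 and library run 2. Every interval includes 0, and Notch1 was testable in run 2 alone.

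Of the libraries, 10 identifiers had both populations, and their values can be set side by side. GFP-negative 4 and 5 were pooled there, since GFP-positive 4 is named for both of their numbers, and 61-1 spans both runs. Pooled over the libraries of an identifier, Hes1 was higher in GFP-positive cells of 7 of 10 identifiers. Rbpj was higher in 8 of 10, and 4 of these 8 rested on at most 2 GFP-negative counts. Jag1 and Hes6 were each higher in 5 and lower in 5. The largest drop in Hes1 was in identifier 7789-7795, with 109 CPM in GFP-positive 3 against 381 CPM in GFP-negative 6. Rbpj went the other way there, with 145 CPM in GFP-positive 3 against 43.0 CPM in GFP-negative 6. In 5780 Hes1 had 443 CPM in GFP-positive and 191 CPM in GFP-negative cells, and in 7968 305 and 115 CPM, the second from 8 counts. Notch3 had counts in 7 identifiers and in 4 of these none in GFP-negative cells, so it was not ordered by identifier.

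**Figure D4:**
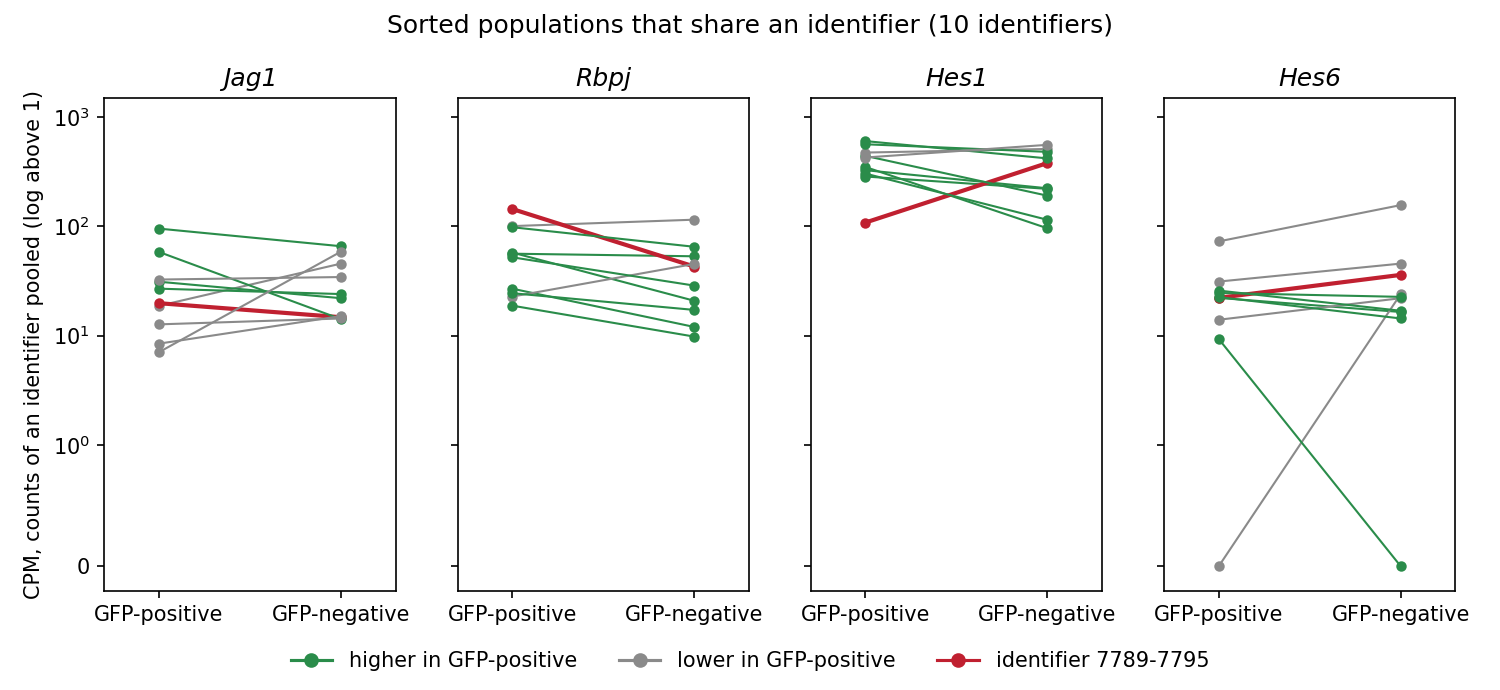
CPM of Jag1, Rbpj, Hes1 and Hes6 (vertical, logarithmic above 1) in GFP-positive (left) and GFP-negative (right) cells of the 10 identifiers with both populations, counts pooled within an identifier and lines joining them. Lines run both ways for each gene, and identifier 7789-7795 (red) is 1 of 3 with less Hes1 in GFP-positive cells, with 109 against 381 CPM.

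Hes1 and Rbpj levels ran against each other across libraries. Over the 19 libraries of at least 100000 counts Pearson's r of log2 CPM was -0.66 and Spearman's rho -0.60. Without GFP-negative 11 and GFP-positive 3, the libraries farthest from the median of Rbpj, r was -0.51 (n = 17), and without GFP-positive 3 alone it was -0.56 (n = 18). It was -0.61 within GFP-positive libraries (n = 10) and -0.80 within GFP-negative libraries (n = 9), where Spearman's rho was -0.43 and -0.83. Rbpj had only 7 counts each in GFP-negative 2 and 3 and 2 counts in GFP-negative 10. Hes1 stood 0.752 times as high as Rbpj in CPM in GFP-positive 3 and 57.0 times in GFP-negative 11, where Rbpj had 1 count. The points share a library total and, in some cases, an identifier, and the part of cell makeup in the relation was not tested. The 5 other pairs among Jag1, Rbpj, Hes1 and Hes6 had r between -0.13 and 0.25 with TMM scaling, where Hes1 and Rbpj had -0.64. The pair was singled out after its value was seen.

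**Figure D5:**
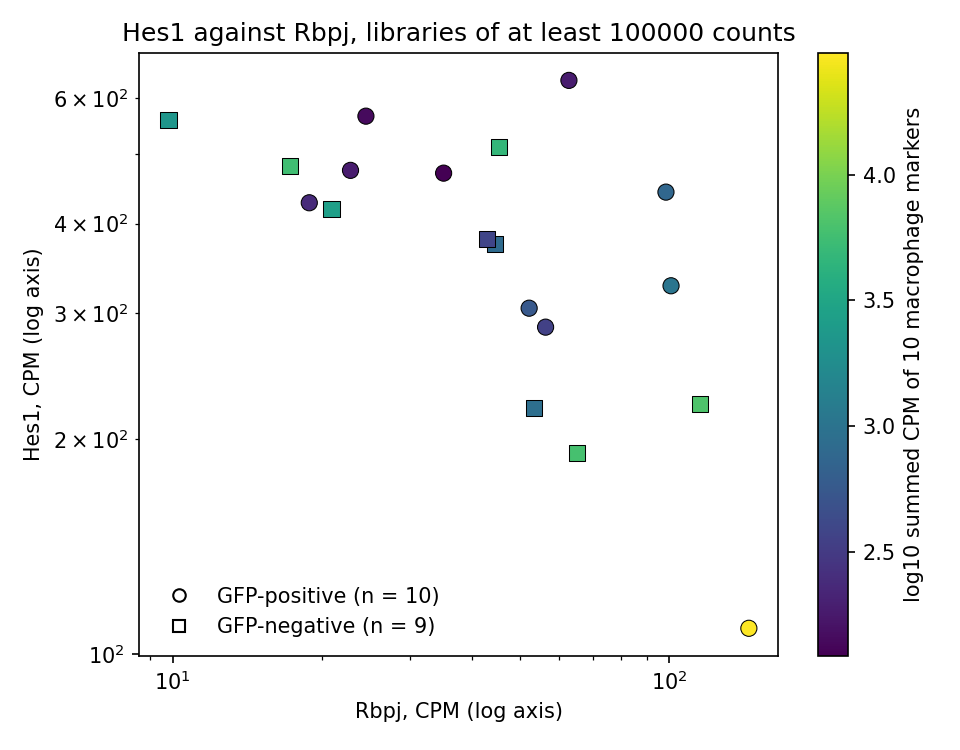
Hes1 (vertical) against Rbpj (horizontal), both in CPM on logarithmic axes, in the 19 libraries of at least 100000 counts, GFP-positive as circles and GFP-negative as squares, coloured by the log10 summed CPM of 10 macrophage markers. GFP-positive 3 lies at the lower right, with 109 CPM of Hes1 and 145 CPM of Rbpj.

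The genes whose log2 CPM was most like that of Hes1 over those 19 libraries were Plxnb1, a semaphorin receptor, Eps8l2 and Ngfr, the low-affinity neurotrophin receptor, with r of 0.82, 0.74 and 0.72. For Jag1 they were Acvr1, a receptor of bone morphogenetic proteins, Git2 and Ahnak, at 0.81, 0.81 and 0.79. For Rbpj they were Zc3h13, Ssr1 and Lbr, a nuclear envelope protein, at 0.81, 0.79 and 0.78, and for Hes6 they were Ppil3, Lrrc40 and Tmem230, at 0.87, 0.86 and 0.86. Each is the highest among 6619 genes, so values of this size are a description of these libraries.

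No other gene of the pathway passed the test. Of 79 other pathway genes, 37 were tested in all libraries, 23 had a positive fold change (58.5% of all genes tested had one), and 0 were called by edgeR in either direction. The median log2 fold change was 0.09, against 0.07 over all 6621 genes. By edgeR 1 of the 37, Snw1, a nuclear co-regulator of Rbpj, had an unadjusted p under 0.05, where 4.95% of all 6621 genes had one. It averaged 272 ± 83.4 CPM in GFP-positive and 183 ± 85.1 CPM in GFP-negative libraries (n = 11 and 12, SD), with a log2 fold change of 0.54 (SE 0.23, edgeR adjusted p = 0.992). In run 1, 33 were tested, and in run 2, 39, and 0 were called in either (smallest edgeR adjusted p = 0.894 and 0.390).

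The list of genes that cut the receptor had 7 of 10 genes tested, 4 positive, with a median log2 fold change of 0.09. Psenen, a subunit of gamma-secretase, averaged 256 ± 72.5 CPM in GFP-positive and 244 ± 53.6 CPM in GFP-negative libraries (n = 11 and 12, SD), a log2 fold change of 0.11 (SE 0.19). Nuclear partners of Rbpj had 16 of 22 tested, 10 positive, with a median of 0.07. Genes of ubiquitination and sorting had 9 of 16 tested, 6 positive, with a median of 0.32, and Nedd4, a ubiquitin ligase, had 0.04 (SE 0.22). Of 10 genes that add sugars to the receptor only Gxylt1, a xylosyltransferase, was tested (-0.28, SE 0.42).

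The other receptors and ligands and most other targets lay below the filter. Notch4, a receptor known from endothelium, averaged 9.35 ± 9.47 CPM in GFP-positive and 12.5 ± 15.0 CPM in GFP-negative libraries (n = 11 and 12, SD). Dll4, a ligand known from endothelium, had 2.12 CPM over pooled GFP-positive libraries (40 counts) and 6.41 CPM over pooled GFP-negative libraries (39 counts). In the same pools the target Nrarp, a feedback inhibitor, had 4.25 CPM (80 counts) in GFP-positive and 2.63 CPM (16 counts) in GFP-negative cells. Hey1, a repressor like Hes1, had 0.690 CPM (13 counts) in GFP-positive and 0.658 CPM (4 counts) in GFP-negative cells. Olfm4, a Notch-dependent crypt gene, had 9 and 2 counts there, or 0.478 and 0.329 CPM. Hes5, a target repressor, had 0 counts in every library. In the list of other Hes, Hey and target genes, 4 of 15 were tested (Bhlhe40, Ccnd1, Id3 and Myc) and 3 were positive. Id3, an inhibitor of helix-loop-helix factors, averaged 274 ± 147 CPM in GFP-positive and 342 ± 120 CPM in GFP-negative libraries (n = 11 and 12, SD), a log2 fold change of -0.32 (SE 0.25).

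No secretory gene, a class that Hes1 is known to restrain through Atoh1, passed the test. Atoh1 itself had 1.12 CPM over pooled GFP-positive (21 counts) and 0.987 CPM over pooled GFP-negative libraries (6 counts). Of the 20 secretory lineage genes 9 were tested over all libraries, and 7 were positive (58.5% of all genes were) with a median log2 fold change of 0.48. By edgeR 0 of these were called or had an unadjusted p under 0.05. In run 1, 3 of 6 tested were positive (54.1% of all genes were) with a median of 0.01. In run 2, 8 of 11 were positive (56.1% of all genes were) with a median of 0.35. Spink4, a goblet cell product, averaged 941 ± 782 CPM in GFP-positive and 764 ± 967 CPM in GFP-negative libraries (n = 11 and 12, SD), a log2 fold change of 0.30 (SE 0.73).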

How the data were processed

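The deposited values are expected counts per gene that the authors estimated with Salmon 1.3.0 on mm10, per the submitters' processing notes; they were whole numbers in the table, so none were rounded. The annotation used is not given in the sources used here. Libraries were directional and poly(A)-selected, per the labels' protocols. Coordinates and transcript lengths came from GENCODE M21 (mm10), which held 51485 of 54354 identifiers.

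Groups came from the titles. CPM is a count over the library total. Fold changes came from edgeR 4.0.16 in R 4.3.3, with TMM factors, filterByExpr by group (minimum count 10) and a robust quasi-likelihood model of the group alone. Benjamini-Hochberg adjustment ran over all tested genes, at 0.05. The code was tested on simulated counts. The alternatives were DESeq2 1.42.0, RLE factors, no filter, blocks and libraries left out. Separate animals are not stated, and p-values then measure only the spread between libraries, which may be technical. A chi-square test found 0 of 121 library pairs within a group that agreed to within counting noise. Reads had no stated molecular identifiers, so the floors of 3 counts cover counting error only. Named genes were the 9 Notch genes, Basp1, Notch4, Dll4, Hes5, Hey1, Nrarp, Olfm4 and Atoh1, and of each list the called genes (at most 3, by p) or the most expressed one. Likeness was Pearson's r of log2 CPM (prior count 2) among genes with a mean of at least 10 counts. The Notch genes and the lists were chosen with earlier results of these data known.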

Additional observations from a re-analysis of the deposited data

Results flagged for a closer look

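A library standing far from the others of its population and run, by the gap to its nearest neighbour against the whole range, was found in 10 of the 36 sets of 5 or 6 libraries examined. Chance gives about 1 in 20 for values that vary smoothly, which does not hold for sets with mostly 0 counts. Of these, 4 rested on at least 50 counts: Notch1 at 35.9 CPM in GFP-positive 3, Notch3 at 12.5 CPM and Jag1 at 95.5 CPM in GFP-positive 1, and Hes6 at 73.0 CPM in GFP-positive 10. Hes6 at 157 CPM in GFP-negative 11, which shares the identifier 7914 with GFP-positive 10, rested on 16 counts. The other 5 rested on 1 to 4 counts: Notch2 at 43.1 CPM in GFP-negative 12, Notch3 at 0.890 CPM in GFP-negative 9, Jag2 at 19.1 CPM in GFP-negative 3, Dll1 at 4.71 CPM in GFP-negative 1 and Dll1 at 1.02 CPM in GFP-positive 8.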

How the results depend on the processing

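No Notch gene was called under any of the alternatives run, over all libraries or in either run. Over all libraries, log2 fold changes ran from 0.17 to 0.50 for Hes1 and 0.08 to 0.73 for Rbpj, positive in all 32 alternatives, from -0.62 to 0.13 for Hes6 (31 of 32 negative) and from -0.43 to 0.27 for Jag1 (13 of 32 positive). Counts of all called genes moved. DESeq2 called 56 genes over all libraries against 1, 9 in run 1 against 0, 284 in run 2 against 89, and 5 for the difference between runs against 0. With no filter beyond 1 count there were 375 in run 2 and 1 for the difference. Leaving out 1 library at a time gave 0 to 16 genes over all libraries (16 without GFP-positive 3), and 0 to 6 in run 1 (6 without GFP-negative 6). Replicate numbers in the titles were not taken to pair the samples (r of deviations -0.17 to 0.40 over 11 pairs, 2 above 0.1). Nor were identifiers, since the labels state no pairing (r -0.22 to 0.40 over 12 pairs). Of these 12 pairs 5 were above 0.1 (median 0.08), against 16 of 111 pairs that share neither (median -0.01). Pairs with one identifier were thus somewhat more alike, and the main fits, their SEs and intervals do not use this. Libraries of one identifier and population, as GFP-positive 2 and 7 of 61-1, count separately in the main fits. A replicate block by title number called 0 genes over all libraries, and a block by identifier 2 there and 140 in run 2. Chosen after the data were seen, dropping GFP-positive 3 with that block called 89 genes, where Hes1 had 0.50 (edgeR adjusted p = 0.381), and dropping it with the libraries under 100000 counts called 0. The macrophage genes Apoe, C1qa and C1qb, at 0.49, 0.27 and 0.42 over all libraries, were -2.88, -2.80 and -2.66 by DESeq2 and -3.49, -3.76 and -3.61 with that block and no GFP-positive 3. With single libraries left out they ran from -3.11 to 0.88, -3.19 to 0.71 and -3.08 to 0.76, the lowest without GFP-positive 3. The causes were not tested. Depth limits the 5 genes below the filter, with 29 to 347 counts each in all.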
